A study of Mus musculus with 69 samples.

Results

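Igf1, Pdgfa, Pdgfb, Pdgfc, Vegfa, Tgfb1, Hbegf, Gas6 and Flt1 encode 8 secreted or shed growth factors and 1 receptor that macrophages are known to use in tissue repair. They were chosen by name from what is known of repair macrophages, though earlier results of these data were also known. They are 9 of the 24537 genes in the expression tables. RNA-seq was made from bone marrow-derived macrophages (BMDMs), which had been grown from marrow for 7 days in M-CSF and then left untreated (basal) or given IL-4 at 20 ng/ml. The mice were females of 8 to 12 weeks. A first table held 29 libraries of 5 inbred strains at basal and after 24 h of IL-4, with 3 libraries a group except PWK basal with 2. The strains were SPRET/EiJ (SPRET), PWK/PhJ (PWK), C57BL/6J (C57), BALB/cJ (BALB) and NOD/ShiLtJ (NOD). A second table held 16 libraries of C57 and SPRET at basal and after 1, 6 and 24 h of IL-4, with 2 libraries a group. Another had the same 4 times, with 2 libraries a group, in Egr2 fl/fl BMDMs without Cre (Egr2WT) and LyzM-Cre Egr2 fl/fl BMDMs (Egr2MKO). Both genotypes carried floxed Egr2 alleles, LyzM-Cre is active in myeloid cells, and the strain background was not given in the labels. The last tables held allele-resolved values of F1 C57 x SPRET and F1 C57 x NOD BMDMs, with 2 libraries at basal and 2 after 24 h of IL-4 in each cross.

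IL-4 drives macrophages into an alternatively activated state, in which STAT6 and the factors it induces, EGR2 among them, change a large programme of genes. Growth factors released by such cells act on their neighbours: IGF-1 on muscle, epithelium and fibroblasts, the PDGF chains and TGF-beta on mesenchymal cells and matrix, VEGF-A on endothelium and HB-EGF on epithelium. Gas6 bridges the phosphatidylserine of dying cells to the receptors Axl and Mertk, and Flt1 (VEGFR1) binds VEGF-A and placental growth factor, in macrophages as well as in endothelium.

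Depth, in units of 1e6 tags a library, was 7.02 to 22.5 in the 5 strains, 5.70 to 24.0 in the time course and 4.69 to 32.9 in the Egr2 table, and the depth of the F1 tables was unknown. Levels are in TPM, a transcript measure scaled for gene length and library depth, and differences are between group means of log2(TPM + 1), which understates the change of genes near 1 TPM. Differences are given ± SE. Tests were limma's across all genes of a table, with Benjamini-Hochberg adjusted p, and a gene was called at an adjusted p under 0.05. The labels do not say whether replicates came from separate animals, so p measures the spread between these libraries only. The 3 TPM tables were scaled separately, and no test crossed them. In the 5 strains, Cd68 (2460 to 4012 TPM), Csf1r (116 to 601 TPM) and Adgre1 (240 to 649 TPM) were high in every library, and 5 lymphocyte markers summed to at most 0.666 TPM. Neutrophil markers, mostly S100a8 and S100a9, summed to 533 to 590 TPM in PWK and 244 to 395 TPM in SPRET, against 14.5 to 130 TPM in the other strains. Fibroblast markers, mostly Dcn, summed to 106 to 212 TPM in PWK and to at most 16.8 TPM elsewhere. The collagens Col1a1 and Col1a2 were at most 0.066 and 0.065 TPM in any of these libraries. Of the endothelial markers only Kdr passed 1 TPM. Markers also moved with IL-4. From basal to 24 h of IL-4, neutrophil sums in C57 went from 106 to 130 TPM down to 16.3 to 24.0 TPM, and in the C57 time course from 66.2 to 93.5 down to 6.2 to 7.52 TPM. Megakaryocyte sums, in which Itgb3 reached at most 55.3 TPM in the 5 strains and 188 TPM in the time course, went from 16.1 to 19.6 up to 55.3 to 59.9 TPM in C57 and from 52.4 to 53.7 up to 189 to 192 TPM in its time course, and fibroblast sums in PWK from 204 to 212 down to 106 to 113 TPM. The part of these markers in the differences between strains and with IL-4 given here was not tested. In bulk RNA, fewer cells of a type and less RNA per cell cannot be told apart.

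In mm10 coordinates the files place Igf1 at chr10:87859052-87937047 on the plus strand, Flt1 at chr5:147562196-147725988 on the minus strand and Tgfb1 at chr7:25687002-25705077 on the plus strand. Values are counted over exons of the whole gene. Antisense genes overlap Igf1 (Igf1os), Pdgfb (Gm41361), Pdgfc (Gm16000) and Gas6 (Tmem255b), and the strand setting of the counting was not given in the sources used here, so reads of the partners cannot be told apart. The 250 bases before a RefSeq transcript start (GRCm38.p6) are shown for the factor with the highest level, Tgfb1, for Flt1, whose fold on IL-4 was among the steepest, and for Igf1, which rose in every strain. The RefSeq start used for Igf1 is not the start in the files but lies inside the gene's interval given there. Capitals mark matches to the EGR motif GCGTGGGCG or the PU.1 core AGGAAG on either strand.
Tgfb1, chr7:25686752-25687001, plus strand: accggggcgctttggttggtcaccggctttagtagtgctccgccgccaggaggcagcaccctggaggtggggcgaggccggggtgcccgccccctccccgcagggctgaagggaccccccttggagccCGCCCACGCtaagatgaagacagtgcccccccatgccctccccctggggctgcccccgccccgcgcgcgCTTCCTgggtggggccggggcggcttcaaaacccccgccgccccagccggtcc
Flt1, chr5:147726012-147726261, minus strand: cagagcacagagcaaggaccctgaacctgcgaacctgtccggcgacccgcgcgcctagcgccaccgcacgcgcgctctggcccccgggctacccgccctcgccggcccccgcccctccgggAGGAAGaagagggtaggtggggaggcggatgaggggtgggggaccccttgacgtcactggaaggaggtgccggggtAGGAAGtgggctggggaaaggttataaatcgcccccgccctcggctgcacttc
Igf1, chr10:87860861-87861110, plus strand: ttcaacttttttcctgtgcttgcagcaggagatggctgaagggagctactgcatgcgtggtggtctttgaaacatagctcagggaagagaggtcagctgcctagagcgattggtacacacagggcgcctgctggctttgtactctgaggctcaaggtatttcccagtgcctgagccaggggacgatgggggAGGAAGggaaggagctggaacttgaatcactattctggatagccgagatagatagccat

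A set of 10 motifs was searched on both strands in 9 start regions of 7 of these genes; those of Hbegf and Pdgfb were not analysed here. The EGR motif matched 1 of the 9, that of Tgfb1, which begins 122 bases before the start, and 0.536% of all 32851 promoters of the same length held it. AGGAAG matched 4 of the 9, against 29.5% of all promoters. The STAT motif, TTC and GAA spaced by 4 or by 3 bases, matched 0 of the 9, against 5.85% and 7.02% of all promoters. GTGGGCG, which lies within the EGR motif, matched 1 of 9 (7.02% of all). ACGTG matched 1 of 9 (16.6% of all), TGANTCA 1 of 9 (6.75%) and GGGTGTG 1 of 9 (6.93%). GAGGAAGT, which contains the PU.1 core, and TTGCNNAA matched 0 of 9 (2.44% and 9.56% of all). A match is a description of the letters, not of binding.

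After 24 h of IL-4, Igf1, Tgfb1, Hbegf and Flt1 rose in all 5 strains, and Pdgfb fell in 4 of them. In NOD the Tgfb1 rise came to 0.02 with rescaling between libraries (adjusted p = 0.874) and was lost on leaving out 3 of the 6 libraries in turn (adjusted p from 0.0579 to 0.0929), and the Pdgfb fall was lost on leaving out 4 of the 6 libraries in turn (adjusted p from 0.099 to 0.152). Of the 9 genes, 8 were called in C57, where 35.5% of 11907 genes tested were, 5 in BALB (34.2% of all genes), 6 in NOD (34.3%), 7 in PWK (24.7%) and 8 in SPRET (44.4%). Arg1, a marker of the IL-4 response, was higher after IL-4 in every strain, from 124, 117 and 137 to 3340.5, 3507 and 3386 TPM in C57 and from 6.21, 7.54 and 3.02 to 78.4, 68.2 and 77.2 TPM in NOD. The median change of the 9 genes was 0.31 in C57 and 0.39 in SPRET on the log2 scale, against -0.04 and 0.11 over all genes tested. At basal, against C57, 7 of the 9 were called in SPRET (68.4% of all genes), 6 in PWK (61.3%), 5 in NOD (74.2%) and 7 in BALB (43.2%). The median of all genes in NOD against C57 at basal was -0.30, and -0.02 with rescaling between libraries. The response itself differed from that of C57 for 4 of the 9 in BALB (15.8% of all genes), 5 in NOD (33.3%), 5 in PWK (22.4%) and 6 in SPRET (33.4%). These comparisons share the C57 libraries.

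**Figure D1:**
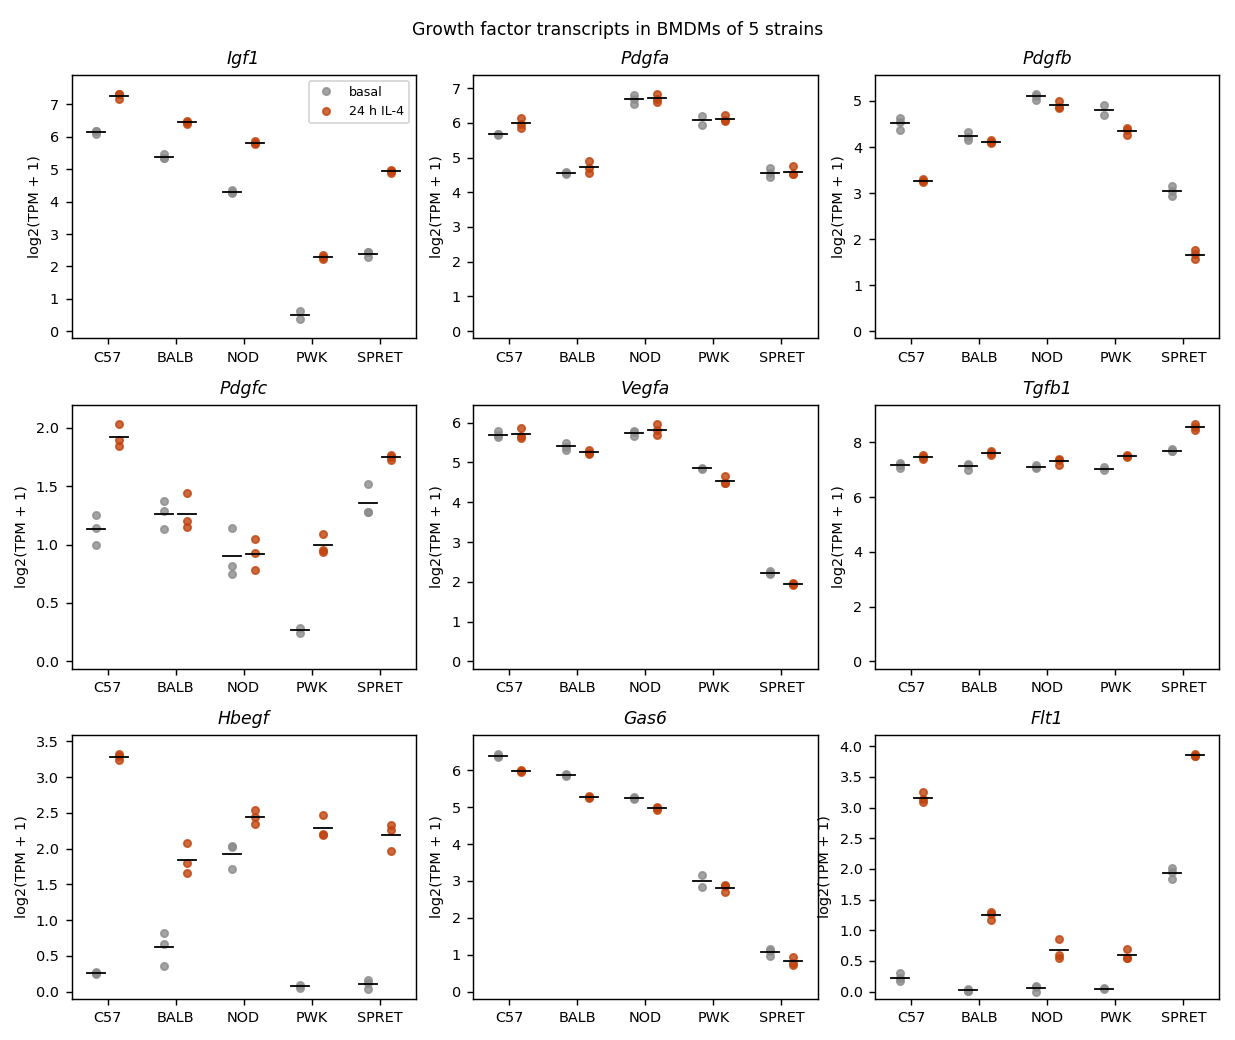
Level of each gene on the log2(TPM + 1) axis in BMDMs of 5 strains; grey points are basal libraries, orange points 24 h IL-4 libraries and bars the group means. Igf1 ranged from 0.296 TPM in a PWK basal library to 160.4 TPM in a C57 library with IL-4, and the IL-4 points lie above the basal points in each strain.

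**Figure D2:**
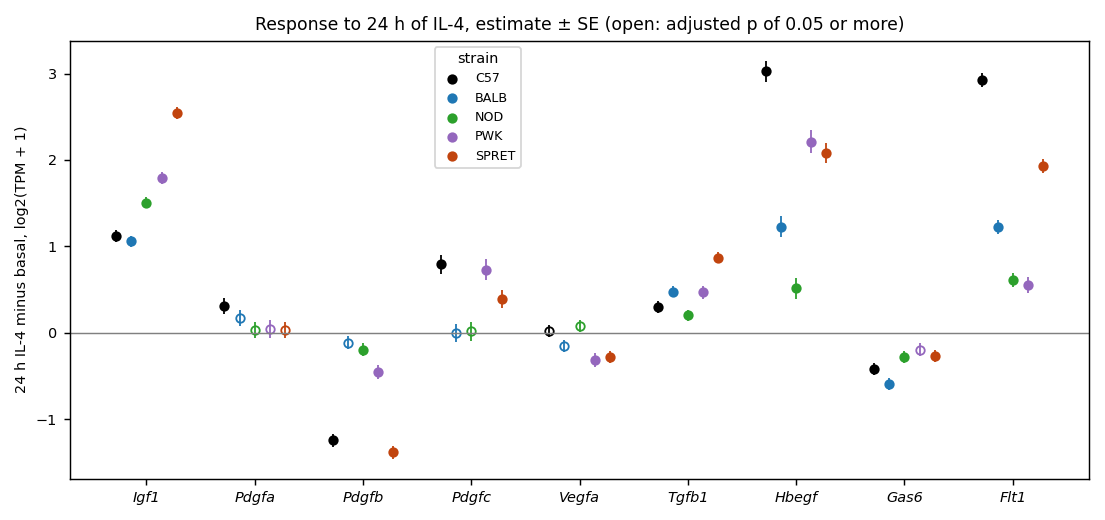
Difference between 24 h of IL-4 and basal for each gene (vertical axis, log2(TPM + 1), limma estimate ± SE) in the 5 strains; open points did not pass the test. Hbegf and Flt1 spread from 0.52 to 3.03 and from 0.55 to 2.93 between strains, and Vegfa stays within 0.31 of 0.

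Igf1, the insulin-like growth factor that macrophages release during muscle and skin repair, rose in all 5 strains from very unequal levels. In C57 it measured 71.8, 66.9 and 71.1 TPM at basal and 160.4, 158 and 142 TPM after 24 h of IL-4. BALB went from 43.1, 39.8 and 39.3 to 88.3, 83.1 and 86.6 TPM and NOD from 18.6, 18.3 and 19.7 to 57.1, 54.0 and 55.1 TPM. SPRET held 4.50, 4.42 and 3.89 TPM at basal and 28.3, 30.7 and 30.1 TPM with IL-4, and PWK only 0.296 and 0.553 TPM and then 3.72, 3.90 and 4.10 TPM. In no strain did the libraries of the basal and IL-4 groups overlap, and the order C57, BALB, NOD, SPRET, PWK was the same in both states, each neighbouring pair differing by limma. The basal mean of C57 was 165 times that of PWK, where the level lay under 1 TPM. The log2 response, with its SE, was 2.54 ± 0.06 in SPRET, 1.79 ± 0.07 in PWK, 1.51 ± 0.06 in NOD, 1.12 ± 0.06 in C57 and 1.06 ± 0.06 in BALB (largest adjusted p = 2.01e-12, in BALB). Against the response of C57, that of SPRET was larger by 1.42 (adjusted p = 7.49e-12), and that of NOD by 0.39 (adjusted p = 0.00244). The excess in PWK, 0.67 (adjusted p = 1.51e-05), turned to -0.36 with a pseudocount of 5 TPM, and that in NOD was no longer called with rescaling between libraries (0.17, adjusted p = 0.148). By ratio of mean TPM the rise was largest in PWK, at 9.21 from a basal mean of 0.424 TPM. The ratio was 6.95 in SPRET, 2.94 in NOD, 2.19 in C57 and 2.11 in BALB. Fibroblast marker sums, mostly Dcn, were high in PWK, the strain with the lowest Igf1 level. The collagens Col1a1, Col1a2 and Col3a1 were at most 0.066, 0.065 and 0.016 TPM in the 5 strains. The part of these markers in the Igf1 levels was not tested.

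The PDGF chains did not move together. Pdgfb, the B chain, which recruits pericytes and fibroblasts, had fallen in 4 strains after 24 h. Its level in C57 was 22.3, 23.8 and 19.7 TPM at basal and 8.92, 8.57 and 8.49 TPM with IL-4. SPRET went from 6.64, 7.96 and 7.30 to 2.38, 1.97 and 2.18 TPM, PWK from 24.9 and 28.9 to 19.6, 20.2 and 18.2 TPM and NOD from 31.6, 33.6 and 34.8 to 27.8, 28.2 and 30.9 TPM. The basal and IL-4 libraries of these 4 strains did not overlap. The change was -1.24 ± 0.08 (adjusted p = 8.16e-13) in C57, -1.38 ± 0.08 (adjusted p = 7.3e-14) in SPRET and -0.46 ± 0.08 (adjusted p = 0.000214) in PWK. NOD changed by -0.20 ± 0.08 (adjusted p = 0.0475), a call lost on leaving out NOD 24 h IL-4 replicate 1 or 2 or NOD basal replicate 2 or 3 (adjusted p from 0.099 to 0.152). BALB changed by -0.12 ± 0.08 (adjusted p = 0.239), with 16.7, 17.7 and 19.1 TPM at basal and 16.3, 16.7 and 16.0 TPM with IL-4. The fall in C57 was deeper than in BALB, NOD and PWK, whose responses lay 1.13, 1.05 and 0.79 above it (largest adjusted p = 1.37e-05), and the response of SPRET lay -0.14 from it (adjusted p = 0.328).

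Pdgfa, the A chain, rose in C57 alone among the 5 responses tested, from 50.6, 49.0 and 49.9 TPM to 61.1, 57 and 69.0 TPM. That change of 0.31 ± 0.09 (adjusted p = 0.00973) was lost without C57 24 h IL-4 replicate 3 (adjusted p = 0.0742), and no other strain's response was shown to differ from it (adjusted p of the differences from 0.0982 to 0.505). Its strain levels differed more than its response did. NOD held 110.0, 91.8 and 102 TPM at basal, against 21.8, 22.8 and 22.6 TPM in BALB and 20.8, 25.0 and 22.4 TPM in SPRET, and no difference was called between BALB and SPRET (adjusted p = 0.894). Pdgfc, a chain activated by cleavage after secretion, stayed at or below 3.10 TPM in every library of the 5 strains. It rose in C57 (0.79 ± 0.11, adjusted p = 1.79e-06), PWK (0.73 ± 0.12, adjusted p = 5.42e-05) and SPRET (0.39 ± 0.11, adjusted p = 0.00471), and its change in BALB was 0.00 ± 0.11 (adjusted p = 1). C57 went from 1.38, 1.00 and 1.21 to 2.58, 2.71 and 3.10 TPM, without overlap, and BALB from 1.59, 1.2 and 1.44 to 1.71, 1.22 and 1.30 TPM, with overlap. The response minus that of C57 was -0.79 in BALB (adjusted p = 0.000678), -0.78 in NOD (adjusted p = 0.000443) and -0.40 in SPRET (adjusted p = 0.0449), the last lost on leaving out 8 of the 12 libraries in turn (adjusted p from 0.057 to 0.132). In the time course, Pdgfc at 24 h went the other way in SPRET, from 2.62 and 2.28 TPM to 0.841 and 0.655 TPM (-0.98 ± 0.17, adjusted p = 0.000647), and in C57 from 3.17 and 2.87 to 2.55 and 2.72 TPM (-0.15 ± 0.17, adjusted p = 0.546).

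Vegfa, the main driver of vessel growth, hardly moved at 24 h but differed strongly between strains. C57 held 50.1, 54.5 and 48.6 TPM at basal and 48.2, 50.1 and 56.8 TPM with IL-4, with overlap. SPRET held 3.58, 3.83 and 3.69 TPM and 2.93, 2.81 and 2.87 TPM, below every library of the other strains. Against C57, SPRET lay -3.47 ± 0.07 (adjusted p = 1.76e-23) at basal, PWK -0.85 ± 0.08 (adjusted p = 1.03e-09) and BALB -0.30 ± 0.07 (adjusted p = 0.00118), and NOD was at 0.04 ± 0.07 (adjusted p = 0.591). A fall at 24 h was called in SPRET (-0.28 ± 0.07, adjusted p = 0.00211) and in PWK (-0.31 ± 0.08, adjusted p = 0.00417), the latter lost without PWK basal replicate 2 (adjusted p = 0.0539). The C57 change was 0.02 ± 0.07 (adjusted p = 0.897). The response minus that of C57 was -0.33 in PWK (adjusted p = 0.0266), lost on leaving out 7 of the 11 libraries in turn (adjusted p from 0.0514 to 0.1), and -0.30 in SPRET (adjusted p = 0.024), lost without C57 24 h IL-4 replicate 3, C57 basal replicate 3 or SPRET basal replicate 2 (adjusted p from 0.055 to 0.0863).

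Flt1, a high-affinity receptor for VEGF-A and placental growth factor, rose in all 5 strains. C57 went from 0.127, 0.16 and 0.233 TPM to 8.48, 7.82 and 7.49 TPM and SPRET from 2.85, 3.04 and 2.55 to 13.7, 13.4 and 13.4 TPM. The other strains held at most 0.068 TPM at basal and reached 1.42, 1.24 and 1.47 TPM in BALB, 0.809, 0.469 and 0.519 TPM in NOD and 0.463, 0.465 and 0.616 TPM in PWK. Each strain's basal and IL-4 libraries lay apart, and SPRET had the most Flt1 in either state. The log2 response was 2.93 ± 0.08 (adjusted p = 8.9e-20) in C57, 1.22 ± 0.08 (adjusted p = 8.21e-12) in BALB and 0.61 ± 0.08 (adjusted p = 2.42e-06) in NOD. PWK gained 0.55 ± 0.09 (adjusted p = 4.43e-05) and SPRET 1.93 ± 0.08 (adjusted p = 2.8e-16). On this log2(TPM + 1) scale each response was smaller than that of C57. The difference was -2.38 in PWK, -2.31 in NOD, -1.71 in BALB and -1.0 in SPRET (largest adjusted p = 1.97e-07, limma). The last came to -0.08 with a pseudocount of 5 TPM (adjusted p = 0.174). As ratios of mean TPM the rise was 45.8 in C57, 79.3 in BALB, 15.6 in PWK, 14.7 in NOD and 4.79 in SPRET. The ratio of BALB thus exceeded that of C57, from basal means of 0.0173 and 0.173 TPM. Kdr, the endothelial receptor for the same ligand, was at most 10.1 TPM and changed by -0.26 ± 0.09 (adjusted p = 0.035) in C57.

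Hbegf, an epidermal growth factor receptor ligand shed from the cell surface, rose in all 5 strains. C57 went from 0.186, 0.211 and 0.195 TPM to 8.48, 8.82 and 9.02 TPM and PWK from 0.071 and 0.035 to 3.60, 3.56 and 4.53 TPM. NOD already held 2.28, 3.10 and 3.05 TPM at basal and reached 4.81, 4.06 and 4.42 TPM, while SPRET had 0.029, 0.115 and 0.083 TPM at basal and 2.92, 3.79 and 4.01 TPM with IL-4. The NOD basal libraries were above all other basal libraries and below those of NOD with IL-4. C57 gained 3.03 ± 0.12 (adjusted p = 1.59e-16), PWK 2.21 ± 0.14 (adjusted p = 2.84e-12), SPRET 2.08 ± 0.12 (adjusted p = 2.75e-13), BALB 1.23 ± 0.12 (adjusted p = 1.53e-08) and NOD 0.52 ± 0.12 (adjusted p = 0.00201). The difference from the C57 response was -2.51 in NOD (adjusted p = 3.77e-11) and -1.80 in BALB (adjusted p = 3.72e-08). The responses of PWK (-0.82) and SPRET (-0.95), smaller on this log2(TPM + 1) scale, were not called with a pseudocount of 0.1 TPM (adjusted p = 0.746 and 0.266). By ratio of mean TPM the rise was 73.5 in PWK, 47.2 in SPRET, 44.5 in C57, 4.77 in BALB and 1.58 in NOD. The ratios of PWK and SPRET thus were not below that of C57, from basal means of 0.053, 0.0757 and 0.197 TPM.

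Tgfb1, the matrix-inducing and immune-restraining cytokine, had the highest mean level of the 9 genes in each group of the 5 strains and the narrowest range across strains at basal. C57 held 144, 152 and 134 TPM at basal and 184, 168 and 178 TPM with IL-4. SPRET stood apart with 204, 213 and 204 TPM, then 409, 379 and 349 TPM. No difference was called between neighbours in the basal order of C57, BALB, NOD and PWK, though with rescaling between libraries NOD lay 0.29 above C57 (adjusted p = 0.00229), and SPRET was 0.53 ± 0.06 (adjusted p = 8.16e-08) above C57. The response was 0.30 ± 0.06 (adjusted p = 0.000656) in C57, 0.47 ± 0.06 (adjusted p = 2.88e-06) in BALB, 0.47 ± 0.07 (adjusted p = 2.06e-05) in PWK and 0.87 ± 0.06 (adjusted p = 3.53e-11) in SPRET, the last larger than in C57 by 0.57 (adjusted p = 2.92e-05). NOD gained 0.20 ± 0.06 (adjusted p = 0.0176), which was lost without NOD 24 h IL-4 replicate 2 or 3 or NOD basal replicate 3 (adjusted p from 0.0579 to 0.0929) and, with rescaling between libraries, came to 0.02 (adjusted p = 0.874).

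Gas6 fell modestly with IL-4 and followed a steep strain order. C57 held 83.4, 86.1 and 81.1 TPM at basal and 64.0, 61.8 and 61.1 TPM with IL-4, and BALB 58.4, 57.3 and 57 and then 37.4, 37.6 and 38.3 TPM. NOD held 36.5, 37.2 and 37.7 and 31.0, 29.4 and 30.8 TPM, PWK 6.21 and 8.02 and 6.36, 5.53 and 6.27 TPM, and SPRET 1.24, 1.16 and 0.969 and 0.663, 0.706 and 0.932 TPM. The basal and IL-4 libraries overlapped in PWK only. Each neighbouring pair of strains in the order C57, BALB, NOD, PWK, SPRET differed, in both states. Gas6 fell in C57 (-0.42 ± 0.07, adjusted p = 3.12e-05), BALB (-0.60 ± 0.07, adjusted p = 2.6e-07), NOD (-0.28 ± 0.07, adjusted p = 0.00334) and SPRET (-0.27 ± 0.07, adjusted p = 0.00301), and PWK changed by -0.20 ± 0.08 (adjusted p = 0.0702). None of the 4 differences of response from C57 was called by limma (adjusted p from 0.129 to 0.286).

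Levels of the ligands' receptors in the macrophages themselves differed between tables, which were scaled separately. Across the 29 libraries of the 5 strains Igf1r was at most 1.3 TPM, Pdgfra 2.33, Pdgfrb 5.96 and Egfr 0.627 TPM. Nrp1, a co-receptor for VEGF-A, held 11.0 to 54.7 TPM, and Tgfbr2 12.3 to 72.8 TPM. Axl lay between 4.05 and 50.1 TPM, and Mertk between 0.569 and 8.02 TPM. In the time course Pdgfrb held 20.3 to 23.9 TPM in every SPRET library and at most 0.461 TPM in C57, Tgfbr1 held 28.5 to 57.2 TPM, and Mertk held 9.33 to 25.0 TPM there and 17.4 to 38.5 TPM in the Egr2 table. With IL-4, Nrp1 rose in SPRET (1.07 ± 0.08, adjusted p = 4.98e-11) and changed by 0.12 ± 0.08 (adjusted p = 0.266) in C57, and Axl fell in C57 (-0.54 ± 0.11, adjusted p = 0.000241). Of 16 receptors and co-receptors tested, 3 rose and 4 fell in C57 (median -0.07), where 35.5% of all genes were called, and 3 rose and 6 fell in SPRET (median -0.08), where 44.4% were.

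The lists of related genes were read against the median of all genes tested, -0.04 in C57 and 0.11 in SPRET, and against the share of all genes called, 35.5% in C57, 44.4% in SPRET and 34.3% in NOD. Among 15 other growth factors 9 rose and 2 fell in C57 (median 0.53), 5 rose and 1 fell in SPRET (median -0.01), and 2 rose and 1 fell in NOD (median -0.02). The largest changes in C57 were those of Pgf, placental growth factor (3.53 ± 0.19, adjusted p = 7.36e-14), Nrg1, an ErbB ligand (2.77 ± 0.10, adjusted p = 2.02e-17), and Csf1, which encodes M-CSF (1.93 ± 0.09, adjusted p = 1.62e-15). In SPRET, Vegfd (3.14 ± 0.12, adjusted p = 2.62e-17) and Csf1 (3.13 ± 0.09, adjusted p = 5.48e-20) led. Of 17 binding proteins and activators, 7 rose and 4 fell in C57 (median 0.16), and 5 rose and 4 fell in SPRET (median 0.06). Lrrc32, which holds latent TGF-beta at the cell surface, changed by 2.92 ± 0.11 (adjusted p = 2.23e-17) in C57, and Igfbp4, which binds IGF-1, by -1.05 ± 0.07 (adjusted p = 3.24e-12) in C57 and -2.27 ± 0.07 (adjusted p = 4.04e-19) in SPRET. Of 10 genes of TGF-beta signalling and its targets, 1 rose and 4 fell in C57 (median -0.10), and 1 rose and 6 fell in SPRET (median -0.37). The TGF-beta-induced matrix protein Tgfbi had the largest change of the list, -0.85 ± 0.05 (adjusted p = 6.66e-14) in C57 and -1.65 ± 0.05 (adjusted p = 6.02e-20) in SPRET. Of 13 hypoxia factors and targets, the class of genes to which Vegfa belongs, 7 rose and 2 fell in C57 (median 0.20), and 1 rose and 7 fell in SPRET (median -0.18).

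The time course of C57 and SPRET split the genes by speed. At 1 h, Hbegf had risen and Pdgfb had fallen in both strains, and Flt1 was first called at 6 h. In C57, 3 of the 9 genes were called at 1 h (3.95% of all genes tested), 7 at 6 h (20.4%) and 6 at 24 h (39.4%). Of the 6 h calls, that of Pdgfc was lost on leaving out any 1 of the 4 libraries (adjusted p from 0.0841 to 0.169) and that of Pdgfa without C57 6 h IL-4 replicate 2 (adjusted p = 0.0718). In SPRET 3 were called at 1 h (8.75%), 6 at 6 h (30.6%) and 5 at 24 h (36.6%). There the 1 h call of Igf1 was lost on leaving out any 1 of the 4 libraries (adjusted p from 0.065 to 0.165), and the 6 h call of Pdgfa without SPRET 6 h IL-4 replicate 2 or either basal library (adjusted p from 0.0631 to 0.125). The difference of response between the strains was called for 2 at 1 h (2.32% of all genes), Pdgfb and Vegfa, which were lost on leaving out 7 and 6 of the 8 libraries in turn (adjusted p from 0.0722 to 0.151 and from 0.122 to 0.169). It was called for 5 at 6 h (11.1%) and 4 at 24 h (28.9%). Of the 6 h calls, that of Flt1 was lost on leaving out 5 of the 8 libraries in turn and that of Tgfb1 on leaving out 3. The 24 h call of Pdgfc was lost on leaving out 4 of the 8.

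**Figure D3:**
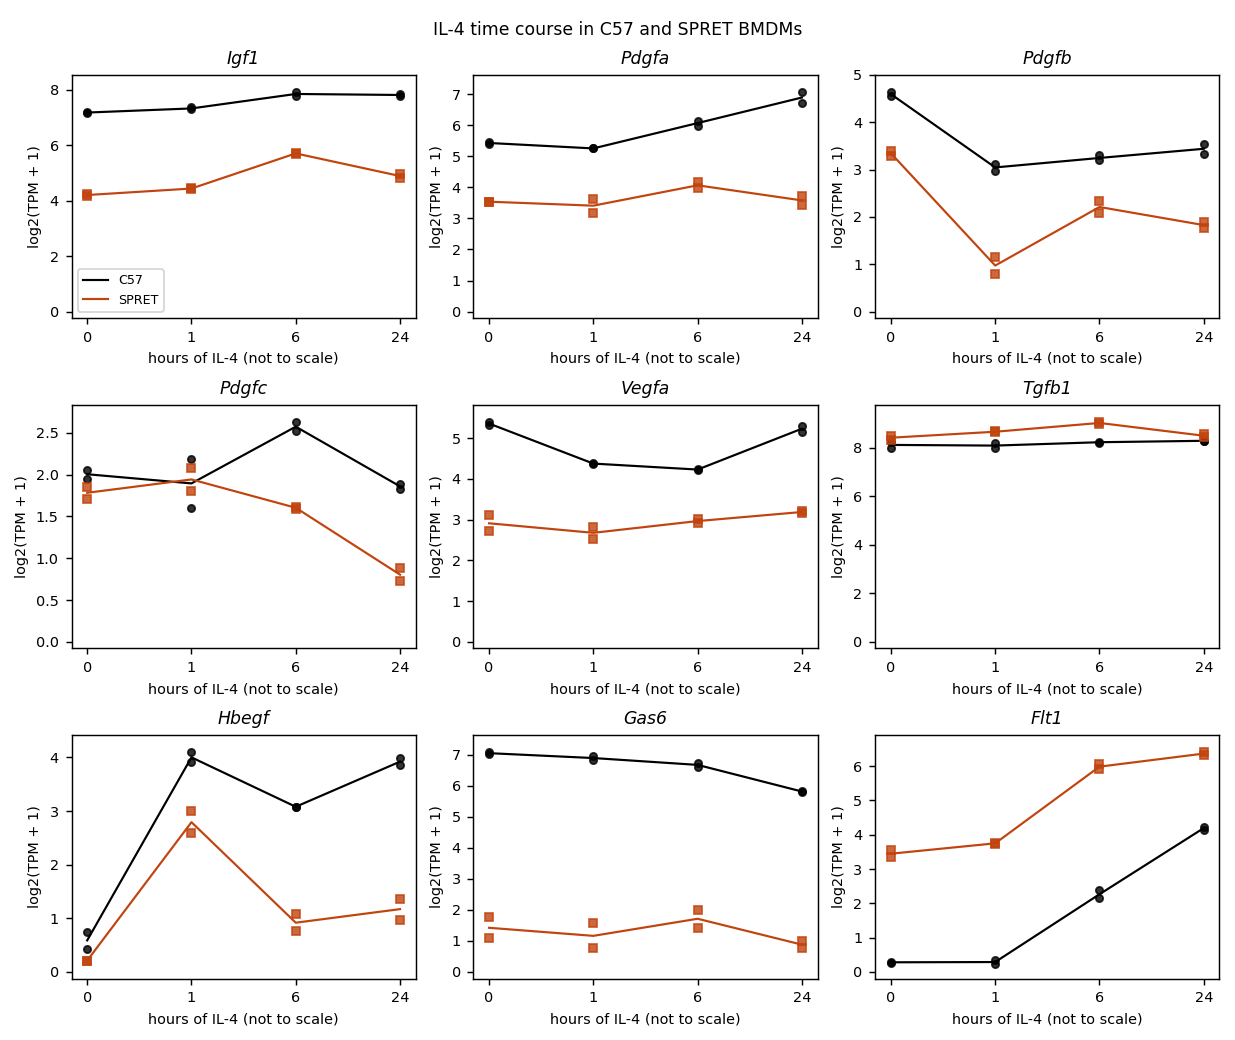
Level of each gene (vertical axis, log2(TPM + 1)) at 0, 1, 6 and 24 h of IL-4 in C57 (black circles) and SPRET (orange squares) BMDMs; points are libraries, lines join group means and the time axis is not to scale. Hbegf peaks at 1 h in SPRET and stays high at 24 h in C57, and Flt1 rises from 6 h in both.

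Hbegf in C57 measured 0.349 and 0.676 TPM at basal, 14 and 16.0 at 1 h, 7.43 and 7.48 at 6 h and 13.5 and 14.9 TPM at 24 h. In SPRET the libraries held 0.159 and 0.157, then 7.01 and 4.99, 0.699 and 1.10 and 1.58 and 0.969 TPM. Both strains had thus risen by 1 h (3.41 ± 0.18, adjusted p = 1.54e-07 in C57 and 2.58 ± 0.18, adjusted p = 6.12e-07 in SPRET), and at later times the SPRET libraries lay below all C57 libraries with IL-4. The response of SPRET minus that of C57 was -1.78 at 6 h (adjusted p = 0.000552) and -2.37 at 24 h (adjusted p = 2.3e-05). The rise of SPRET at 6 h (0.71 ± 0.18, adjusted p = 0.00886) was lost without SPRET 6 h IL-4 replicate 2 (adjusted p = 0.0851). Flt1 in C57 measured 0.221 and 0.21 TPM at basal, 0.177 and 0.268 at 1 h, 4.21 and 3.43 at 6 h and 16.8 and 17.8 TPM at 24 h. In SPRET it measured 9.20 and 10.7, 12.3 and 12.6, 58.9 and 65.8 and 79.6 and 83.2 TPM. Every SPRET library at 6 and 24 h was above every C57 library. The log2 rise at 24 h was 3.91 ± 0.10 in C57 and 2.92 ± 0.10 in SPRET (both called), and the sign of its difference (-0.99, adjusted p = 0.000221) turned to 0.44 with a pseudocount of 5 TPM.

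Pdgfb was lowest at 1 h in both strains. In C57 its level went from 22.5 and 23.9 TPM to 6.88 and 7.66 TPM at 1 h and 10.7 and 9.11 TPM at 24 h, and in SPRET from 9.56 and 8.79 to 1.21 and 0.74 and 2.70 and 2.40 TPM. No IL-4 library reached the basal level of its strain. The change at 1 h was -1.55 ± 0.13 (adjusted p = 9.52e-06) in C57 and -2.37 ± 0.13 (adjusted p = 8.08e-08) in SPRET. Vegfa in C57 fell and came back, with 40.9 and 39.2 TPM at basal, 19.6 and 19.9 at 1 h, 18.0 and 17.5 at 6 h and 34.7 and 38.6 TPM at 24 h. Its log2 change was -0.98 ± 0.12 (adjusted p = 0.000307) at 1 h, -1.13 ± 0.12 (adjusted p = 3.39e-05) at 6 h and -0.13 ± 0.12 (adjusted p = 0.455) at 24 h. In SPRET the 6 h change was 0.05 ± 0.12, and the strains' responses differed by 1.19 at that time (adjusted p = 0.000752).

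Pdgfa in C57 went from 41.5 and 42.6 TPM to 62.6 and 69.9 TPM at 6 h and 104 and 133 TPM at 24 h. In SPRET it held 10.6 and 10.6 TPM at basal and 9.85 and 12.2 TPM at 24 h, with the 24 h libraries on both sides of basal. The difference of the 24 h responses was -1.42 (adjusted p = 0.000305). Igf1 peaked at 6 h in SPRET, with 17.7 and 17.2 TPM at basal, 21.2 and 20.3 at 1 h, 51.9 and 50.8 at 6 h and 30.0 and 27.4 TPM at 24 h. In C57 it moved from 145 and 144 TPM to 219.9 and 242 TPM at 6 h and 221 and 229 TPM at 24 h. All 6 and 24 h libraries lay above basal in both strains. The 6 h change was 1.50 ± 0.06 (adjusted p = 1.92e-09) in SPRET and 0.67 ± 0.06 (adjusted p = 5.54e-06) in C57, and its difference was 0.83 (adjusted p = 4.48e-05). Gas6 in C57 fell to 55.4 and 54.8 TPM at 24 h, from 129 and 133 TPM (-1.23 ± 0.26, adjusted p = 0.00236). Tgfb1 in SPRET rose at 6 h, to 511 and 531 TPM from 361 and 323 TPM (0.61 ± 0.08, adjusted p = 9.51e-05), and at 24 h its change was 0.08 ± 0.08 (adjusted p = 0.484).

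The 24 h responses of the same strain were not alike in the separate tables. The log2 change of Igf1 in SPRET was 2.54 in the first table and 0.69 in the time course, and that of Tgfb1 in SPRET 0.87 and 0.08. Pdgfa in C57 changed by 0.31 and 1.46, and Gas6 in C57 by -0.42 and -1.23. Pdgfc in SPRET was called in opposite directions, at 0.39 and -0.98, and in C57 it changed by 0.79 and -0.15. Flt1, Hbegf and Pdgfb kept their direction in C57 and SPRET, with Flt1 at 2.93 and 3.91 in C57. These tables were scaled separately, and the difference between them was not tested.

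In the Egr2 table the deleted gene was checked first. Egr2 measured 23.6 and 21.3 TPM in Egr2WT at basal, then 82.0 and 75.6 at 1 h, 88.4 and 92.5 at 6 h and 101 and 99.5 TPM at 24 h. The Egr2MKO libraries held 0.859 and 0.854, 3.39 and 4.09, 3.10 and 5.23 and 4.72 and 7.05 TPM. Their means were 3.81 to 5.88% of those of Egr2WT, in the direction of the labels. Against Egr2WT, 2 of the 9 genes were called at basal (11.5% of all genes), 3 at 1 h (11.4%), 5 at 6 h (20.6%) and 7 at 24 h (37.4%). At 24 h, Igf1, Pdgfa, Pdgfc, Hbegf and Gas6 were higher in Egr2MKO and Pdgfb and Vegfa were lower. The difference in response was called for 0 of the 9 at 1 h (0.0166% of all genes, limma, 1 at an unadjusted p under 0.05), 0 at 6 h (1.10%, 2 unadjusted) and 5 at 24 h (12.6%). Fitted with only the groups compared, the 6 h count of genes differing in level between genotypes went from 5 to 0. With rescaling between libraries the count differing in 24 h response went from 5 to 2. The median of all genes was 0.10 for that difference of response and 0.12 for the 24 h level of Egr2MKO against Egr2WT. With rescaling these medians were -0.01 and -0.002. Neutrophil and megakaryocyte markers also differed with genotype. At 24 h their sums were 10.7 to 16.1 and 54.3 to 56.3 TPM in Egr2MKO, against 18.6 to 21.0 and 189 to 197 TPM in Egr2WT. At basal the megakaryocyte sums were already 19.9 to 20.7 TPM in Egr2MKO and 57.7 to 58.7 TPM in Egr2WT. In the 5 strains Itgb3 of that list reached 55.3 TPM, while Itga2b, Gp9, Gp1bb and Ppbp reached at most 1.67, 0.887, 1.47 and 8.92 TPM. The part of these markers in the Egr2 results was not tested.

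**Figure D4:**
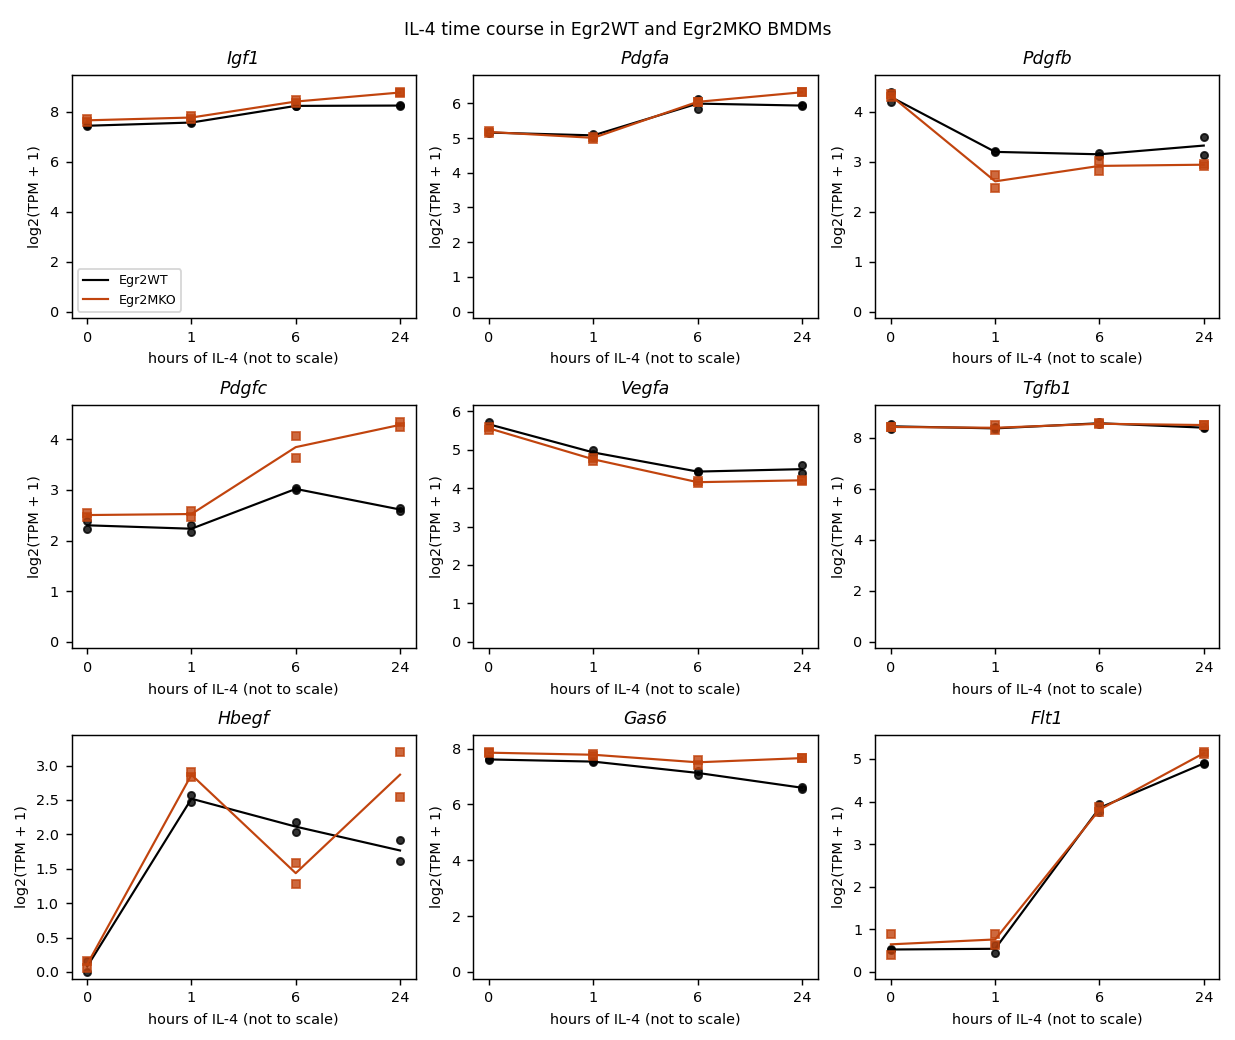
Level of each gene (vertical axis, log2(TPM + 1)) at 0, 1, 6 and 24 h of IL-4 in Egr2WT (black circles) and Egr2MKO (orange squares) BMDMs; points are libraries, lines join group means and the time axis is not to scale. Pdgfc and Gas6 part at 6 and 24 h, while Flt1 and Tgfb1 keep close to each other.

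Pdgfc showed the largest difference of the 9. Egr2WT libraries held 4.21 and 3.67 TPM at basal, 7.18 and 7.05 at 6 h and 5.02 and 5.22 TPM at 24 h. Egr2MKO libraries held 4.80 and 4.54, 15.7 and 11.4 and 19.2 and 17.8 TPM. The genotypes did not overlap at any of these times, and at basal the gap was small. The log2 difference was 0.83 ± 0.13 (adjusted p = 0.000854) at 6 h and 1.67 ± 0.13 (adjusted p = 1.08e-06) at 24 h, and the 24 h responses differed by 1.47 ± 0.18 (adjusted p = 0.000269). Gas6 fell from 196 and 194 to 98.8 and 93.2 TPM in Egr2WT and went from 229 and 232 to 202 and 200.2 TPM in Egr2MKO. At 24 h every Egr2MKO library had more Gas6 than every Egr2WT library (1.06 ± 0.06, adjusted p = 6.59e-08), and the responses differed by 0.82 ± 0.08 (adjusted p = 7.05e-05). The basal difference (0.24 ± 0.06, adjusted p = 0.0201) was lost when any 1 of the 4 basal libraries was left out (adjusted p from 0.082 to 0.114).

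Igf1 went from 172 and 174 to 299.7 and 308 TPM in Egr2WT and from 209 and 194 to 432 and 442 TPM in Egr2MKO. The groups did not overlap at 24 h (0.52 ± 0.05, adjusted p = 3.13e-06), and the 24 h response was larger in Egr2MKO by 0.30 ± 0.06 (adjusted p = 0.0087). The median of all genes in this difference of response was 0.10. Igf1 was above Egr2WT at basal too (0.22 ± 0.05, adjusted p = 0.0085), a call lost without Egr2WT basal replicate 1 or Egr2MKO basal replicate 1 (adjusted p = 0.0597 and 0.101 as lowest and highest). Hbegf held 3.54 and 3.12 TPM at 6 h and 2.06 and 2.77 TPM at 24 h in Egr2WT, against 2.01 and 1.43 and 4.84 and 8.13 TPM in Egr2MKO. It was thus lower in Egr2MKO at 6 h (-0.68 ± 0.20, adjusted p = 0.0351) and higher at 24 h (1.10 ± 0.20, adjusted p = 0.00114), without overlap at either time. The 6 h call was lost without Egr2WT 6 h IL-4 replicate 1 or 2 or Egr2MKO 6 h IL-4 replicate 2 (adjusted p from 0.0806 to 0.182). The difference of the 24 h responses of Hbegf (1.07 ± 0.29, adjusted p = 0.0298) was lost on leaving out Egr2WT or Egr2MKO basal replicate 1 or 2, Egr2WT 24 h IL-4 replicate 1 or Egr2MKO 24 h IL-4 replicate 2 (adjusted p from 0.053 to 0.116). That of Pdgfa (0.37 ± 0.11, adjusted p = 0.0465) was lost on leaving out any of the 8 libraries (adjusted p from 0.0923 to 0.134).

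Vegfa fell in both genotypes, from 47.8 and 51.5 to 23.1 and 20.1 TPM in Egr2WT and from 44.7 and 47.5 to 17.5 and 17.3 TPM in Egr2MKO (-1.17 ± 0.07, adjusted p = 1.59e-07 and -1.35 ± 0.07, adjusted p = 3.57e-08). The difference at 24 h (-0.29 ± 0.07, adjusted p = 0.00871) was lost without Egr2WT 24 h IL-4 replicate 1 (adjusted p = 0.1). The 24 h fall in Egr2WT of -1.17 stands beside changes of 0.02 and -0.13 in C57 of the other tables. Pdgfb was -0.38 ± 0.13 (adjusted p = 0.0357) in Egr2MKO against Egr2WT at 24 h, which was lost without Egr2WT 24 h IL-4 replicate 1 or either Egr2MKO 24 h IL-4 library (adjusted p from 0.0941 to 0.31). Flt1 rose in both genotypes, to 28.4 and 29.1 TPM in Egr2WT and 33.7 and 34.5 TPM in Egr2MKO at 24 h, and its difference between them was 0.24 ± 0.15 (adjusted p = 0.249). Tgfb1 was not called in any comparison of this table (at 24 h 0.10 ± 0.07, adjusted p = 0.278, limma). Of 14 other growth factors tested, 7 were higher and 3 lower in Egr2MKO at 24 h, where 37.4% of all genes were called, with Pgf (3.44 ± 0.28, adjusted p = 1.45e-06), Nrg1 (2.91 ± 0.18, adjusted p = 1.6e-07) and Vegfc (1.95 ± 0.21, adjusted p = 2.09e-05) differing most. Of 16 binding proteins and activators, 4 were higher and 5 lower, among them Lrrc32 (-2.67 ± 0.17, adjusted p = 1.8e-07) and Mmp14 (1.13 ± 0.06, adjusted p = 2.01e-08).

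F1 cells carry both parental genomes in the same nucleus, so a difference between alleles is measured within 1 cell environment. In F1 C57 x SPRET, 8 of the 9 genes passed the filter, and Pdgfc, at most 0.452 in every allele column, did not. Of the 8, 2 differed between alleles at basal (14.4% of all genes tested) and 1 after 24 h of IL-4 (7.88%). Gas6 held 84.2 and 83.3 from the C57 allele at basal and 19.6 and 21.0 from the SPRET allele, in the authors' allele-resolved TPM. With IL-4 these were 19.8 and 21.2 and 4.35 and 8.61. The SPRET allele was below the C57 allele in every library (-1.99 ± 0.20, adjusted p = 0.0187 at basal, -1.59 ± 0.20, adjusted p = 0.0362 with IL-4). Flt1 was the reverse, with 0.852 and 0.849 from the C57 allele and 3.65 and 3.69 from the SPRET allele at basal (1.34 ± 0.10, adjusted p = 0.013). The basal calls of Gas6 and Flt1 were lost without either basal F1 library (adjusted p from 0.148 to 0.166 and from 0.137 to 0.149). The 24 h call of Gas6 was lost without F1 24 h IL-4 replicate 1 or either basal library (adjusted p from 0.0559 to 0.102).

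**Figure D5:**
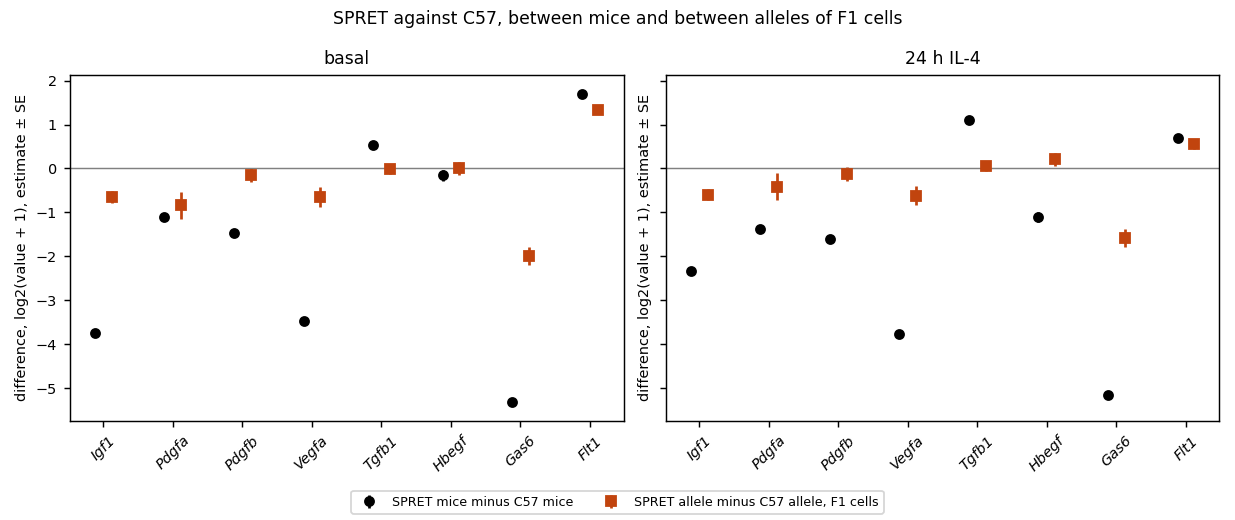
SPRET minus C57 on the log2(value + 1) axis (estimate ± SE), between mice of the 2 strains (black circles) and between the alleles of F1 cells (orange squares), at basal and after 24 h of IL-4. For Gas6 the basal difference is -5.32 between mice and -1.99 between alleles, and for Flt1 1.70 and 1.34.

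Between the parental strains Igf1 differed by -3.75 at basal, and between the F1 alleles by -0.64 ± 0.13 (adjusted p = 0.0537). The F1 libraries held 35.8 and 29.6 from the C57 allele and 22.3 and 18.8 from the SPRET allele, which do not overlap. Vegfa differed by -3.47 between the strains and -0.65 ± 0.22 between the alleles, and Pdgfb by -1.47 and -0.15 ± 0.17. Tgfb1 differed by 0.53 at basal and 1.10 with IL-4 between the strains, and by -0.01 and 0.06 between the alleles. Parental and allele values come from tables scaled separately, and the difference between them was not tested. The summed alleles rose with IL-4 for Igf1 (0.59 ± 0.15, adjusted p = 0.044), Hbegf (2.34 ± 0.19, adjusted p = 0.00757) and Flt1 (1.73 ± 0.14, adjusted p = 0.00754) and fell for Pdgfb (-1.43 ± 0.11, adjusted p = 0.00752) and Gas6 (-1.91 ± 0.13, adjusted p = 0.00697), 5 of 8 against 38.7% of all genes, whose median change was -0.31. Leaving out either basal F1 library ended all 5 calls (for Pdgfb, Hbegf, Gas6 and Flt1 adjusted p from 0.0523 to 0.0689), and that of Igf1 was also lost without either IL-4 library (adjusted p from 0.0649 to 0.144). In F1 C57 x NOD, limma called 0 of 5 genes between alleles at basal (0.0549% of all genes, 0 at an unadjusted p under 0.05), 0 of 5 with IL-4 (0.293%, 2 unadjusted) and 0 of 4 for the response (0.0382%, 1 unadjusted). Pdgfb read 0 from the C57 allele in both F1 C57 x NOD IL-4 libraries and 47.2 and 16.5 from the NOD allele, and Pdgfa, Pdgfc, Tgfb1 and Gas6 are listed at 0 for both alleles there.

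For the 3 genes with the widest range of group means, the most similar genes across the 29 libraries of the 5 strains were sought by Pearson r of log2(TPM + 1). Igf1 was most like Atf5 (r = 0.977), B430306N03Rik (0.957) and Cd300lb (0.945). Gas6 was most like AU022793 (r = 0.991), Arl5c (0.989) and Sdc3 (0.983), and Vegfa was most like Eef1a1 (0.987), Tmem221 (0.987) and Gpx3 (0.983). These libraries fall into strains and treatments, so the r values describe group differences. Of pairs among the 9, Vegfa and Gas6 had r = 0.930, both being lowest in SPRET.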

How the data were processed

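RNA was measured in BMDMs as poly(A), strand-marking libraries. Per the labels and the study's methods, the authors aligned reads with STAR 2.5.3 to each strain's genome, shifted positions to mm10 with MMARGE 1.0 and deposited TPM over exons from HOMER 4.11.1. The effect of the separate alignments on levels between strains was not tested. For F1 cells the authors deposited TPM per allele, scaled by the reads over mutations (in F1 C57 x SPRET over gene spans, so values compare only within that table), and the depth of those tables is unknown. The authors' own comparison columns (fold changes and adjusted p-values) were not used, and a table of human cells was not analysed here.

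The 9 genes and the lists were chosen with earlier results of these data known. Each table was fitted on its own with limma 3.58.1 (R 4.3.3) on log2(TPM + 1), with a mean per group and a trended prior, over genes at 1 TPM or more in at least 2 libraries (11907, 12088 and 12079 genes in the 5 strains, the time course and the Egr2 table). Allele values were fitted likewise with the library as a block. Benjamini-Hochberg adjustment covered all genes tested in a table. Groups came from the labels, 61 of the 69 samples being in the TPM tables and 8 in the F1 tables, with 2 or 3 libraries a group. No libraries were identical, and the lowest correlation within a group was 0.971. The fit was tested on simulated data.

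Besides the 9, the named genes were Egr2 and Arg1 as checks, the receptors of the 9, the 3 largest changes of a list, and the 3 most correlated genes for the 3 members with the widest range. Genes were described by role, and which of the 10 motifs searched to put in capitals was chosen after the matches were seen. Alternatives were pseudocounts of 0.1 and 5, no filter, median-ratio scaling, fits of only the groups compared, a replicate block and leaving out each library.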

Additional observations from a re-analysis of the deposited data

Results flagged for a closer look

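These are the 15 differences of response between groups that passed limma's test of the difference itself at an adjusted p under 0.05 and were over 2-fold, a size chosen with the results known. They are given as values, all on the log2(TPM + 1) scale, and no cause was tested. Against the 24 h response of C57, the Flt1 response differed by -2.38 in PWK, -2.31 in NOD, -1.71 in BALB and -1.0 in SPRET. The SPRET difference was not called with a pseudocount of 5 TPM. The ratio of mean Flt1 TPM was larger in BALB (79.3) than in C57 (45.8), from basal means of 0.0173 and 0.173 TPM. The Hbegf response differed by -1.80 in BALB and -2.51 in NOD, and the Pdgfb response by 1.13 in BALB and 1.05 in NOD. Igf1 responded more in SPRET than in C57, by 1.42. In the time course, SPRET minus C57 at 6 h was 1.19 for Vegfa and -1.78 for Hbegf, and at 24 h it was -1.42 for Pdgfa and -2.37 for Hbegf. In Egr2MKO minus Egr2WT at 24 h, the response differed by 1.47 for Pdgfc and by 1.07 for Hbegf. The call of Hbegf there rested on single libraries, as given above.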

How the results depend on the processing

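Over all comparisons, most values of the 9 genes kept their direction and their side of the threshold: 387 did with a pseudocount of 0.1, 382 with a pseudocount of 5, 391 with no filter, 334 with median-ratio scaling and 316 with only the groups compared. With a pseudocount of 5 the excess Igf1 response of PWK over C57 turned from 0.67 to -0.36 and the 24 h Flt1 difference of SPRET from C57 in the time course from -0.99 to 0.44. The Flt1 difference at 6 h turned from 0.55 to -0.99 with a pseudocount of 0.1. Flt1 in C57 and Igf1 in PWK were under 1 TPM at basal. With median-ratio scaling the basal Tgfb1 difference of NOD from C57 turned from -0.07 to 0.29, where the scaling moved the basal median of all genes in NOD from -0.30 to -0.02. The cause was not tested. Of the counts of called genes, that of the 1 h time course difference went from 2 to 1 with a pseudocount of 0.1 or median-ratio scaling and to 0 with no filter or only the groups compared. The 6 h count of Egr2MKO against Egr2WT went from 5 to 0 with only the groups compared, a fit with fewer libraries. The 24 h Egr2 response difference went from 5 to 2 with median-ratio scaling. The 24 h allele count of F1 C57 x SPRET went from 1 to 0 with no filter.

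Replicate numbers did not pair the libraries: correlations of same-numbered deviations ran from -0.143 to 0.333, and only BALB had most pairs over 0.1. With a replicate block the 24 h Egr2 response difference called 3 genes, not 5, and no other count moved by over 1.5 times. In the F1 C57 x NOD 24 h alleles 1 gene was called with no replicate block and 0 with the library as a block.

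Leaving out 1 library kept 2150 of the values, lost 143 calls and made 21, a lone library being assumed to vary like the other groups. The counts then ranged from 0 to 1 for the 1 h and from 3 to 5 for the 6 h time course difference, from 0 to 1 for Egr2MKO against Egr2WT at basal and at 1 h, from 2 to 4 at 6 h, and from 0 to 1 and from 3 to 4 for the Egr2 response difference at 6 and 24 h. In F1 C57 x SPRET they ranged from 0 to 5 and from 0 to 2 for the alleles at basal and 24 h and from 0 to 3 for the response, and in the F1 C57 x NOD 24 h alleles from 0 to 0. Genes under 1 TPM rest on few tags.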
